A study of Mus musculus with 13 samples.

Results

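Cytosolic ribosomal protein genes encode the proteins that, with ribosomal RNA, build the large and small subunits of the ribosome. They were taken as the protein-coding genes of GENCODE M21 whose symbol is Rpl, Rps or Rplp with a number and at most a short paralogue suffix, plus Rpsa. The rule found 80 genes, of which 78 were in the deposited table of 13201 genes, 47 of the large and 31 of the small subunit. All 78 passed the filter on low values. Rpl3l and Rpl10l, the remaining pair, were not analysed here except in the promoter counts. Rps3a1 and Fau also encode ribosomal proteins but carry symbols outside the rule.

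The data were 13 polyadenylated RNA libraries of 100 mouse bone marrow haematopoietic stem cells (HSCs) each. They were prepared with Smart-seq2, which copies whole transcripts from small inputs. The cells were wild-type (WT) or deficient in MEK1, the kinase upstream of ERK (KO), from untreated mice or from mice given 5-fluorouracil (5-FU), a drug that kills dividing blood cells. Untreated cells gave 3 WT libraries, named D1 to D3, and 3 KO libraries, named D4 to D6. Cells after 5-FU gave 4 WT libraries, named A2, A3, A4 and D4. The 3 KO libraries after the drug are A5, A6 and A8. The name D4 thus occurs once in each genotype. The title of the series asks how ERK-dependent feedback protects HSCs from exhaustion. Strain, age, 5-FU dose, sampling time and what drives the MEK1 deletion are not given in the labels or protocols used here. Whether each library is a different animal is not stated either, and a p-value then reflects only the spread among these libraries, which may be technical.

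Ribosomal protein mRNAs are among the most abundant of a cell, and their products are needed in near equal numbers because a ribosome holds a single copy of most of them. Most begin with a run of pyrimidines at the transcription start, the 5′ terminal oligopyrimidine (TOP) motif, through which the mTOR pathway controls their translation. ERK signalling also reaches this machinery, since its kinase RSK phosphorylates the ribosomal protein encoded by Rps6. HSCs are known for a low rate of protein synthesis, and blood formation is sensitive to the loss of single ribosomal proteins, as in Diamond-Blackfan anaemia.

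Library totals were 11416753 to 25380570 reads, with 45384866 in untreated WT D1. Map2k1, which encodes MEK1, had normalized counts of 905 to 1766 in untreated WT and 545 to 750 in untreated KO, and of 584 to 1634 in WT and 304 to 460 in KO after 5-FU, so the genotypes did not overlap within a treatment. All untreated libraries and WT D4 after 5-FU carry a 2015 acquisition date in the labels, and the other 5-FU libraries a 2016 date. WT D4 after 5-FU was sequenced on a second flowcell and untreated WT D1 on both flowcells. WT A3 and D4 after 5-FU were close to each other, with a correlation of 0.988 over all genes against 0.934 to 0.944 for the other pairs of that group. Whether A3 and D4 share RNA or cDNA is not stated. They count as separate libraries in the means, SDs and tests here, unless said otherwise. The 3 KO libraries after 5-FU were also closer to each other (0.966 to 0.977) than untreated libraries of a group were (0.912 to 0.943). Of 14 HSC marker genes, 13 had reads in every library. Their summed normalized count was 24900 to 32351 in untreated cells, 23740 to 26575 in WT after 5-FU and 13329 to 15110 in KO after 5-FU. The 9 megakaryocyte markers in the table summed to 31449 to 54753 in WT after 5-FU and to 4748 to 7526 in KO after 5-FU. Summed markers of other blood cells also moved with the groups. Of 10 neutrophil markers 8 were in the table, and their sum was 4101 to 5887 in WT and 2249.8 to 2404 in KO after 5-FU, against 4506 to 5255 in untreated cells. The 9 of 11 erythroid markers in the table summed to 5551 to 6827 in WT and to 3632 to 4171 in KO after 5-FU, against 1137 to 2562 in untreated cells. Only 4 of 7 B cell and 2 of 7 T and NK cell markers were in the table, and the others, Cd3d, Cd3e, Cd3g, Cd79a and Pax5 among them, were not analysed here. After 5-FU the B cell sum was 1221 to 2031 in WT and 580.5 to 833 in KO, and the T and NK cell sum 5763 to 6737 in WT and 1709.7 to 3810.1 in KO. The 5 of 6 macrophage markers in the table went the other way, with 78.9 to 254 in WT and 335 to 349 in KO after 5-FU. Thus the genotypes did not overlap after 5-FU in any of these sums. They did overlap in the sum of the 2 of 7 stroma and endothelium markers in the table, with 228 to 865 in WT and 283 to 386 in KO. How these marker levels bear on the ribosomal protein genes was not tested.

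Promoter sequences from RefSeq (GRCm38.p6) were matched by symbol for 60 of the 80 genes that the rule found, with 72 promoters in all. Rpl3l and Rpl10l are among these, although they are not in the deposited table. A run of at least 8 pyrimidines overlapping the 5 bases on either side of the annotated start was present in 31.9% of these promoters and in 9.72% of all 32851 promoters in that table. In the windows of 300 bases around the start, searched on both strands, the ETS-type motif CCGGAAG was found in 36.1% of the members' promoters and 8.86% of all. The YY1-type motif AAGATGGCG was found in 6.94% and 1.40%, the E-box CACGTG in 11.1% and 7.15%, and the TATA-box letters TATAAA in 8.33% and 13.6%. None of these motifs contains another, and a match is a description of the letters only. Windows of 60 bases, the last 15 of them from the annotated start onwards, are printed 5′ to 3′ for genes that the results turn on. The first 4 genes hold a pyrimidine run, in capitals, and the other 4 hold none of that length at this start. This split depends on the annotated start. Rpl35a has runs of 4, 13 and 1 at its annotated starts, and the Rpl5 and Rpl27 windows each hold a run of at least 8 upstream of the 5 bases allowed. A gene without a run here is thus not shown to lack the TOP motif.
Rpl34, chr3:130730323-130730382, minus strand: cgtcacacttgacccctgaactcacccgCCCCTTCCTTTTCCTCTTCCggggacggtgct
Rpl35a, chr16:33056437-33056496, plus strand: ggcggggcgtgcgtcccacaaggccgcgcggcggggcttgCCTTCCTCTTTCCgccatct
Rps24, chr14:24490633-24490692, plus strand: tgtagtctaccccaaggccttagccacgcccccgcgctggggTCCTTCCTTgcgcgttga
Rps26, chr10:128626492-128626551, minus strand: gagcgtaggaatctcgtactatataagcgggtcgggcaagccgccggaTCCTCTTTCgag
Rpl27, chr11:101442200-101442259, plus strand: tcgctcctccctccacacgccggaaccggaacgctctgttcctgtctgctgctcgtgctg
Rpl37a, chr1:72711215-72711274, plus strand: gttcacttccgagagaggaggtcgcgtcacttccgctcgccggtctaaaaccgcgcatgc
Rps28, chr17:33824548-33824607, minus strand: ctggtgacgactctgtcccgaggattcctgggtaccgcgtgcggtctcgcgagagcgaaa
Rpl5, chr5:107900483-107900542, plus strand: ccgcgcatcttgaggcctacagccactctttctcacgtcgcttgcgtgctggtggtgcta

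The 78 genes held between 8.15% and 11.2% of the reads of a library. The share was 8.76% ± 0.668 (SD, n = 3) in untreated WT, 9.28% ± 0.259 (SD, n = 3) in untreated KO, 10.4% ± 0.764 (SD, n = 4) in WT after 5-FU and 8.76% ± 0.331 (SD, n = 3) in KO after 5-FU. In WT after 5-FU the shares were 10.7% in A2, 9.37% in A3, 10.6% in A4 and 11.2% in D4. The KO libraries after 5-FU held 8.38%, 8.999% and 8.89%, all below the lowest WT library after 5-FU. Untreated WT libraries held 8.15%, 9.48% and 8.65%, so D2 lay above WT A3 after 5-FU and the 2 WT groups overlapped. Without the libraries that had reads from the second flowcell, the WT means were 9.07% (n = 2) untreated and 10.2% ± 0.729 (SD, n = 3) after 5-FU. The widest 95% Wilson interval of a library, which covers counting error only, was 9.35% to 9.39%, so counting error was far below the spread between libraries. In bulk libraries, fewer cells of a type and less RNA per cell cannot be told apart.

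**Figure D1:**
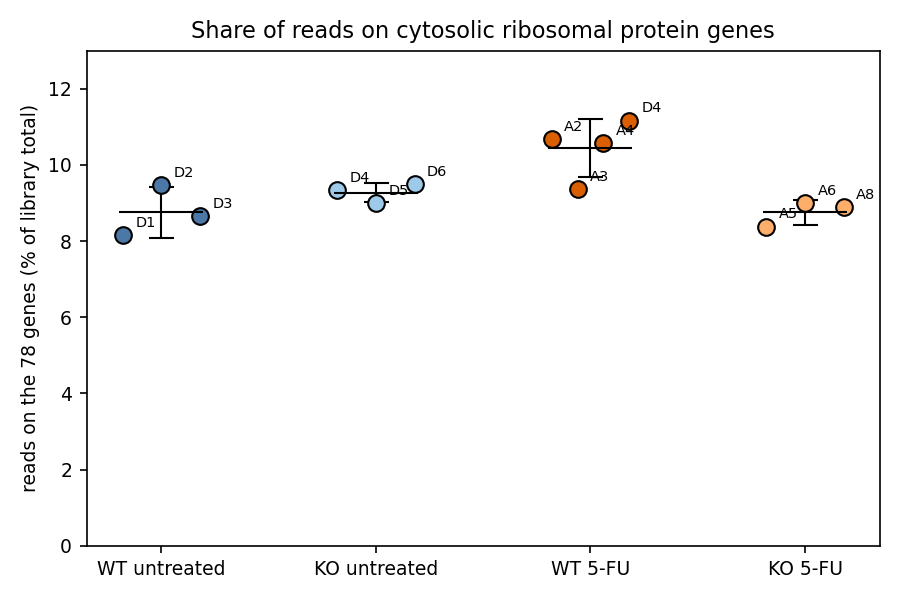
Share of reads on the 78 cytosolic ribosomal protein genes, in percent of the library total (vertical axis), for each library (labelled points) by group (horizontal axis), with the mean and SD as black lines. The KO libraries after 5-FU lie between 8.38% and 8.999%, below the 4 WT libraries after 5-FU, which span 9.37% to 11.2%.

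Levels differed widely between members. Per kilobase of mRNA the mean normalized count over the 13 libraries ran from 17.0 for Rpl39l, the germ-cell paralogue of Rpl39, to 88258 for Rps2, with a median of 21080. After Rps2, the highest were Rpl32 at 84865 and Rps4x, an X-linked small-subunit gene, at 64943. After Rpl39l, the lowest were Rpl5 at 183 and Rpl12, a large-subunit gene, at 393. These levels depend on how reads that fit several genes were counted, which is not given in the sources used here. Of the 78 genes, 76 share at least one stretch of 50 bases with another annotated gene, mostly processed pseudogenes, and in 50 of them at most 50% of such stretches are unique. Rpl5 has 6.16% unique stretches and 15 other genes that share one. The level per kilobase showed no marked relation to the percent of unique stretches over the 78 genes (Spearman's rho -0.03, a description over genes of the same libraries).

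Rps27, a small-subunit gene, was the extreme case of shared sequence, with 1.35% unique stretches of 50 bases. Its normalized counts were 8.10 to 69.5 in 11 libraries, but 1951 in untreated WT D1 and 7303 in WT D4 after 5-FU. These 2 libraries are those with reads from the second flowcell. Its near copy Rps27rt held 9559 to 42213 in all 13 libraries. Rps27 thus received 12.3% of the summed count of the pair in D1 and 14.7% in D4, against 0.0361% to 0.490% in the others. Among 13201 genes, 4 stood at least 5 times above the highest of the other 11 libraries in both of those libraries. They were Rps27, with the ribosomal protein pseudogene rows Rpl36a-ps3, Rpl38-ps2 and Rps15a-ps7. Values for Rps27 are therefore not read as expression.

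**Figure D2:**
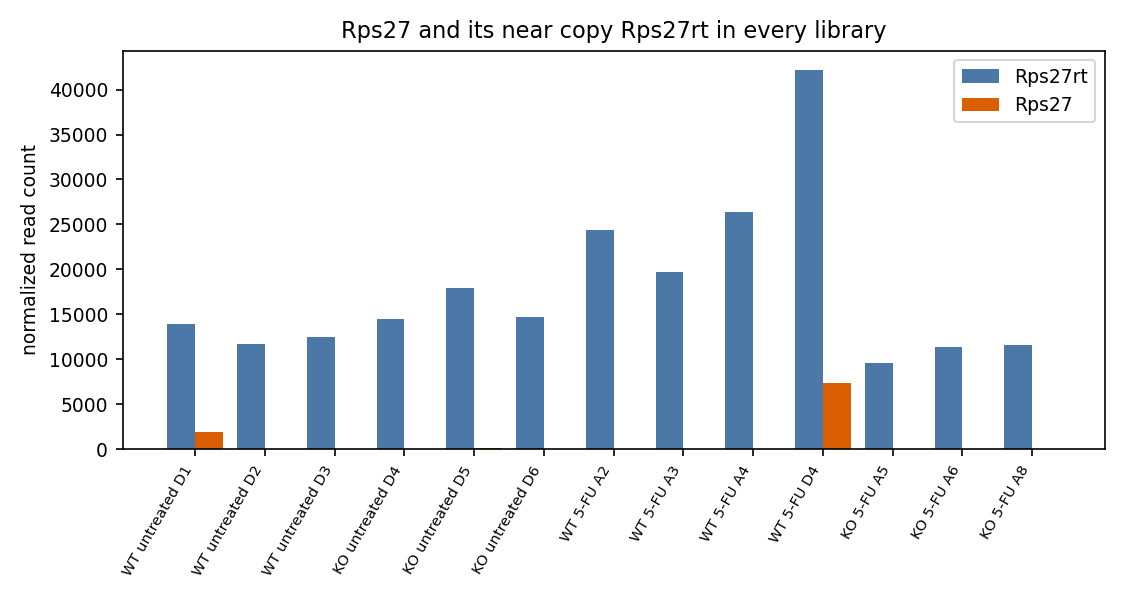
Normalized read count (vertical axis) of Rps27 (orange) and Rps27rt (blue) in each library (horizontal axis). Rps27 reaches 1951 in untreated WT D1 and 7303 in WT D4 after 5-FU and stays at or below 69.5 in the other 11 libraries.

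In WT HSCs, 5-FU was followed by higher levels of many ribosomal protein genes, most of them short. Of the 78 genes, 30 rose and 1 fell (limma, Benjamini-Hochberg adjusted p under 0.05), against a background over all 12846 tested genes of 3.72% higher and 2.96% lower. The median difference of the members was 0.40 on the log2 scale, against -0.002 over all tested genes, and 70 of 78 were positive. Of the large subunit 19 of 47 rose, and of the small subunit 11 of 31. The largest rises were in Rps29, Rpl39, Rpl41, Rps28, Rpl38, Rpl35a, Rpl37a and Rpl37.

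Rps29, a small-subunit zinc-binding protein gene (chr12:69157722-69159186), had normalized counts of 6419, 7003 and 5610 in untreated WT and of 20459, 14310, 19638 and 32149 in WT after 5-FU, in the order A2, A3, A4, D4 used throughout. The groups did not overlap, and D4 was the highest. The log2 difference was 1.66 ± 0.19 (SE, adjusted p = 8.79e-05), a ratio of means of 3.41, or 2.88 without the libraries on the second flowcell. Rpl39, whose product lines the exit tunnel of the large subunit, had 3109, 3344 and 2476 untreated and 9235, 7009, 9119 and 12937 after 5-FU, again without overlap (log2 difference 1.54 ± 0.17 SE, adjusted p = 3.5e-05). Rpl41, which has the shortest reading frame of the members at 75 bases, had 10932, 9708 and 7866 untreated and 26534, 18386, 21546 and 44011 after 5-FU. Its log2 difference was 1.43 ± 0.22 (SE, adjusted p = 0.000677).

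Rps28, a small-subunit gene (chr17:33819027-33824562), had 4603, 5984 and 4253 untreated and 13127, 10161, 12779 and 18864 in WT after 5-FU. Rpl38, which is known for its part in patterning of the axial skeleton, had 1833, 1810 and 1257 untreated and 4280, 2615, 3703 and 6972 after 5-FU. In both genes every 5-FU library lay above every untreated one. Rpl35a, a Diamond-Blackfan gene, had 4020, 5594 and 4121 untreated and 9394, 7850, 10376 and 13970 after 5-FU. Rpl37a, a large-subunit zinc-binding protein gene, had 6938, 9300 and 7136 untreated and 17199, 12805, 16342 and 22127 after 5-FU. Rpl37 rose by 1.02 ± 0.17 (SE, adjusted p = 0.00145). Of the other genes picked here for their link to Diamond-Blackfan anaemia, Rps26 (0.72) and Rps10 (0.64) also rose, as log2 differences. Rps24, Rps19 and Rps7 differed by 0.35, 0.16 and 0.14 and did not pass. The picked genes are not a full list of those linked to the disease, so this split does not describe the disease group.

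Of the genes of the acidic stalk, where translation factors bind, 1 of 3 passed. Rplp2 rose, with 7426, 10270 and 6717 untreated and 15090, 11441, 13540 and 20210 in WT after 5-FU (log2 difference 0.85 ± 0.17 SE, adjusted p = 0.00682). Rplp0, the stalk base, differed by 0.02 ± 0.11 (adjusted p = 0.941), and Rplp1 by 0.30 ± 0.13 (adjusted p = 0.175). Rpl11, which with Rpl5 binds MDM2 when ribosome assembly fails, rose by 0.52 ± 0.12 (adjusted p = 0.0146), from 3468 to 3804 untreated to 4840 to 5686 after 5-FU. Rpl5 went the other way, with a difference of -0.57 ± 0.20 that did not pass (adjusted p = 0.104). Rps6 differed by 0.16 ± 0.14 (adjusted p = 0.551).

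The count of rises in WT depended on the libraries and the fit. It was 14 without the libraries on the second flowcell, where the median of the members was 0.25, 15 with only the 2 WT groups in the fit, and 19 without untreated WT D3. Of the 31 calls, 12 held under every one of the 18 alternatives of this comparison, and they include Rps29, Rpl39, Rpl41, Rps28, Rpl38, Rpl35a, Rpl37a and Rpl37. The calls for Rpl11 and Rps10 were lost without the libraries on the second flowcell, with only the 2 WT groups and with acquisition date as a term, and that for Rplp2 without the libraries on the second flowcell. The call for Rps26 was lost with quantile normalization, with only the 2 WT groups and without untreated WT D3. Acquisition date goes with treatment except in WT D4: against the untreated WT libraries of the same year, WT D4 alone had a median difference of 0.51 over the members, and the WT libraries of 2016 had 0.38.

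The rise followed the length of the coding sequence. Over the 78 genes, Spearman's rho between coding length and the WT difference was -0.72, a description over genes of the same libraries. Of the 26 shortest members, of 75 to 396 bases, 19 rose, and their median difference was 0.77. Of the 26 in the middle, of 399 to 552 bases, 10 rose, with a median of 0.41. Of the 26 longest, 1 rose and 1 fell, with a median of 0.15. Other nuclear protein-coding genes in the same length classes had medians of 0.14 (627 genes), 0.02 (702 genes) and -0.04 (4078 genes). Their length is that of the longest annotated coding sequence, while the members were measured on a chosen transcript. The other genes were not matched to the members for level.

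WT A3 and D4 after 5-FU, the close pair on different flowcells, differed along the same axis. The median difference of D4 over A3 was 0.26 over the members and -0.04 over all genes. In 6 of 78 members D4 was more than 2-fold from A3, while 0.522% of all genes were. The 5 largest were Rps27, Rpl35 (12109 against 3948), Rpl38 (6972 against 2615), Rpl41 (44011 against 18386) and Rps29 (32149 against 14310). Rpl35, a large-subunit gene, has 4.91% unique stretches of 50 bases. All 26 of the shortest members were higher in D4, with a median of 0.80, against 22 of 26 in the middle class (0.25) and 14 of 26 in the longest (0.01). The medians of other genes in these classes were 0.10, 0.02 and -0.04. Spearman's rho with coding length was -0.79 over the members for this pair. It was also -0.50 for A4 over A3, both on the first flowcell, and 0.62 for A3 over A2, so A3 was low in short members against every other WT library after 5-FU. D4 was high in them against every other one, with rho -0.69 for D4 over A2 and -0.68 for D4 over A4, where A4 over A2 gave 0.09. Untreated WT D1, which also has reads from the second flowcell, gave rho -0.52 against the mean of D2 and D3. Unlike D4, D1 was not high in short members. Its medians were -0.06 in the shortest class, with 9 of 26 positive, and -0.36 in the longest. The part of library, flowcell or date in the 5-FU difference was not tested beyond the values without these libraries. Without both libraries on the second flowcell, the WT difference had rho -0.72 with length and medians of 0.63, 0.32 and 0.05 from the shortest to the longest class.

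**Figure D3:**
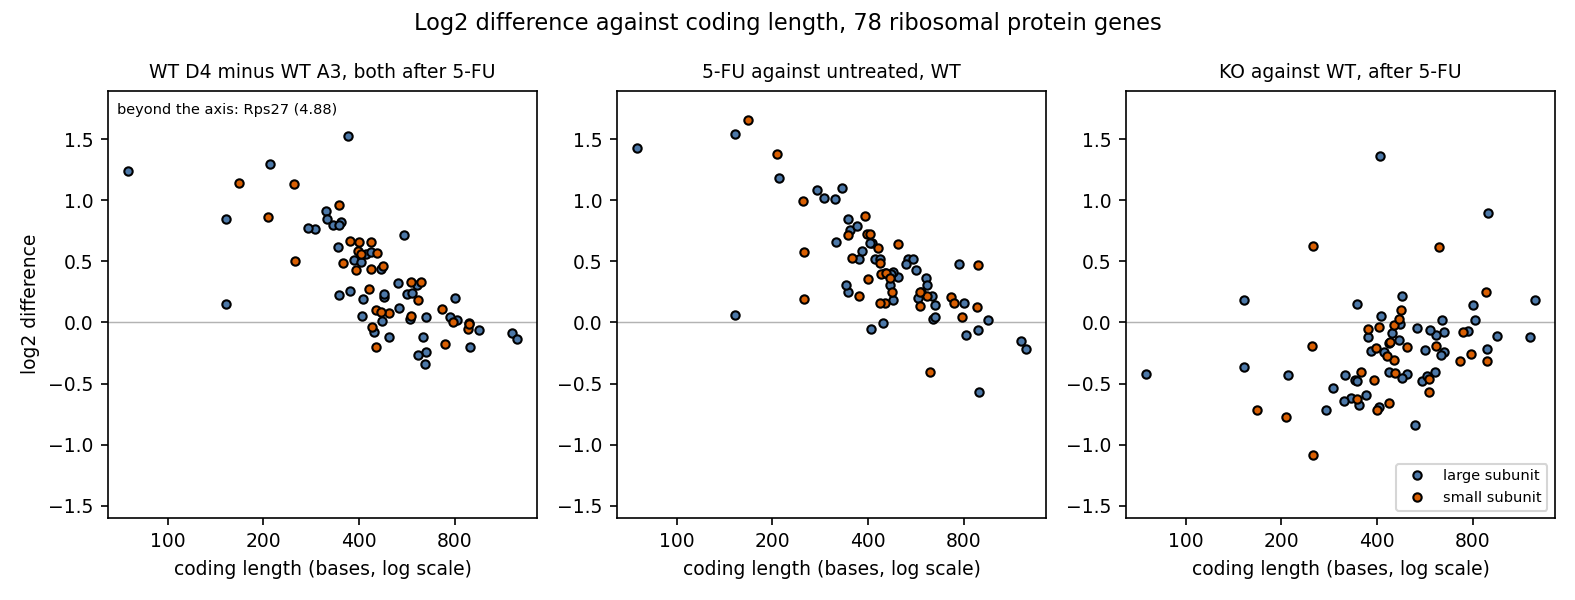
Log2 difference of each of the 78 genes (vertical axes) against its coding length in bases (horizontal axes, log scale), for WT D4 over WT A3 after 5-FU, for 5-FU over untreated in WT and for KO over WT after 5-FU, by subunit. In the first 2 panels the short genes lie highest, with medians of 0.80 and 0.77 in the shortest class. In the last panel they lie lowest, with a median of -0.45, or -0.30 without WT D4.

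In KO HSCs, the same drug was followed by few such changes. Of 78 members 3 rose and 1 fell, near the background of 2.78% higher and 3.14% lower. The median difference was -0.002, against -0.012 over all genes. Rpl27, Rps27l and Rpl39 rose and Rps19 fell.

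Rpl27, a large-subunit gene (chr11:101442298-101445529), had 1488, 1710 and 1303 in untreated KO and 3128, 3465 and 4127 in KO after 5-FU. The log2 difference was 1.07 ± 0.19 (SE, adjusted p = 0.00273), a ratio of means of 2.38. Rps27l, a p53-induced paralogue of Rps27, had 4058, 5431 and 4083 untreated and 8489, 8149 and 9337 after 5-FU (0.89 ± 0.16 SE, adjusted p = 0.00384). Both genes were higher in the 3 KO libraries after 5-FU than in any other library of the series. Rpl39 had 4746, 4135 and 4445 untreated and 6737, 7594 and 7196 after 5-FU (0.65 ± 0.18 SE, adjusted p = 0.0399). Rps19, the gene most often mutated in Diamond-Blackfan anaemia, had 23086, 28130 and 23073 untreated and 17718, 17966 and 16459 after 5-FU (-0.50 ± 0.13 SE, adjusted p = 0.0313). The calls for Rpl39 and Rps19 were lost without any single one of the 6 KO libraries: untreated D4, D5 or D6, or A5, A6 or A8 after 5-FU. All KO libraries after 5-FU were acquired in 2016 and all untreated ones in 2015, so date and drug cannot be told apart within KO. A fit with acquisition date as a term takes the date from WT D4 against the other WT libraries after 5-FU. That fit made 0 calls in KO, but the median difference of the members moved upwards from the -0.002 of the main fit. The flat KO median thus depended on leaving the date out. The WT median in the fit with date was 0.51.

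After 5-FU, KO and WT HSCs differed in 22 members, most of them lower in KO. In KO 18 were lower and 4 higher, against a background of 5.5% lower and 5.36% higher. The median difference of the members was -0.24 and that of all genes -0.02. The lower group took in 10 of 47 large-subunit and 8 of 31 small-subunit genes. Among the largest differences downwards were those in Rps28, Rps29, Rpl37a, Rps24, Rpl32, Rpl34 and Rps19, and among those upwards Rpl27, Rpl5 and Rps27l. This comparison shares its WT libraries with the WT response to 5-FU, so the 2 sets of values are not independent.

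Rps24, a Diamond-Blackfan gene, had 20998, 17965, 23504 and 28644 in WT and 12154, 14019 and 14574 in KO (-0.71 ± 0.14 SE, adjusted p = 0.0027). Rps19 had 26512, 23824, 28590 and 32353 in WT and 17718, 17966 and 16459 in KO (-0.66 ± 0.12 SE, adjusted p = 0.00207). In both genes the 3 KO libraries after 5-FU were the lowest of the 13.

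Rps28 had 7147, 7666 and 8269 in KO against 10161 to 18864 in WT after 5-FU, above its untreated WT range of 4253 to 5984. Rps29 had 10555, 13650 and 13445 in KO against 14310 to 32149 in WT after 5-FU (-0.72 ± 0.19 SE, adjusted p = 0.026), a call lost with acquisition date as a term, with only the 2 groups in the fit, and without WT D4, KO A5, KO A6 or KO A8. Rpl37a had 8765, 10300 and 11318 in KO against 12805 to 22127 in WT, a call lost without KO A5. In these 3 short genes the KO values after 5-FU lay above the untreated WT mean and below every WT library after 5-FU. Against untreated KO, however, they differed by only 0.31 (Rps29), 0.13 (Rps28) and -0.08 (Rpl37a) as log2 differences, and none passed. Rpl32 had 31570, 36280 and 39660 in KO against 46219 to 65154 in WT, and Rpl34 had 11630, 12098 and 12036 against 14973 to 26816. Rplp1 (-0.47) and the Diamond-Blackfan genes Rpl35a (-0.62), Rps26 (-0.63) and Rps7 (-0.57) were also called lower, as log2 differences, each of them lost without KO A5 and without KO A6. Rps10 (-0.20), Rps6 (-0.08), Rpl11 (-0.04) and Rpsa (-0.32), which also encodes the laminin receptor, did not pass.

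Rpl27 showed the largest difference upwards, with 3128, 3465 and 4127 in KO against 1607, 962, 1126 and 1008 in WT after 5-FU (1.36 ± 0.17 SE, adjusted p = 0.000104). Rpl5 had 551, 579 and 692 in KO against 294, 181, 190 and 128 in WT (0.90 ± 0.20 SE, adjusted p = 0.0085), a ratio of means of 3.06. Its KO values after 5-FU were above all other libraries (215 to 452 in untreated cells). Only 6.16% of the stretches of 50 bases in Rpl5 are unique, and 35.9% of those in Rpl27, where the median of the members is 41.3%. How shared reads were counted may enter the values of both genes and was not tested. Rps27l had 8489, 8149 and 9337 in KO against 6196, 4569, 4683 and 6641 in WT (0.63 ± 0.15 SE, adjusted p = 0.0138), a call lost without KO A8 and with quantile normalization.

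**Figure D4:**
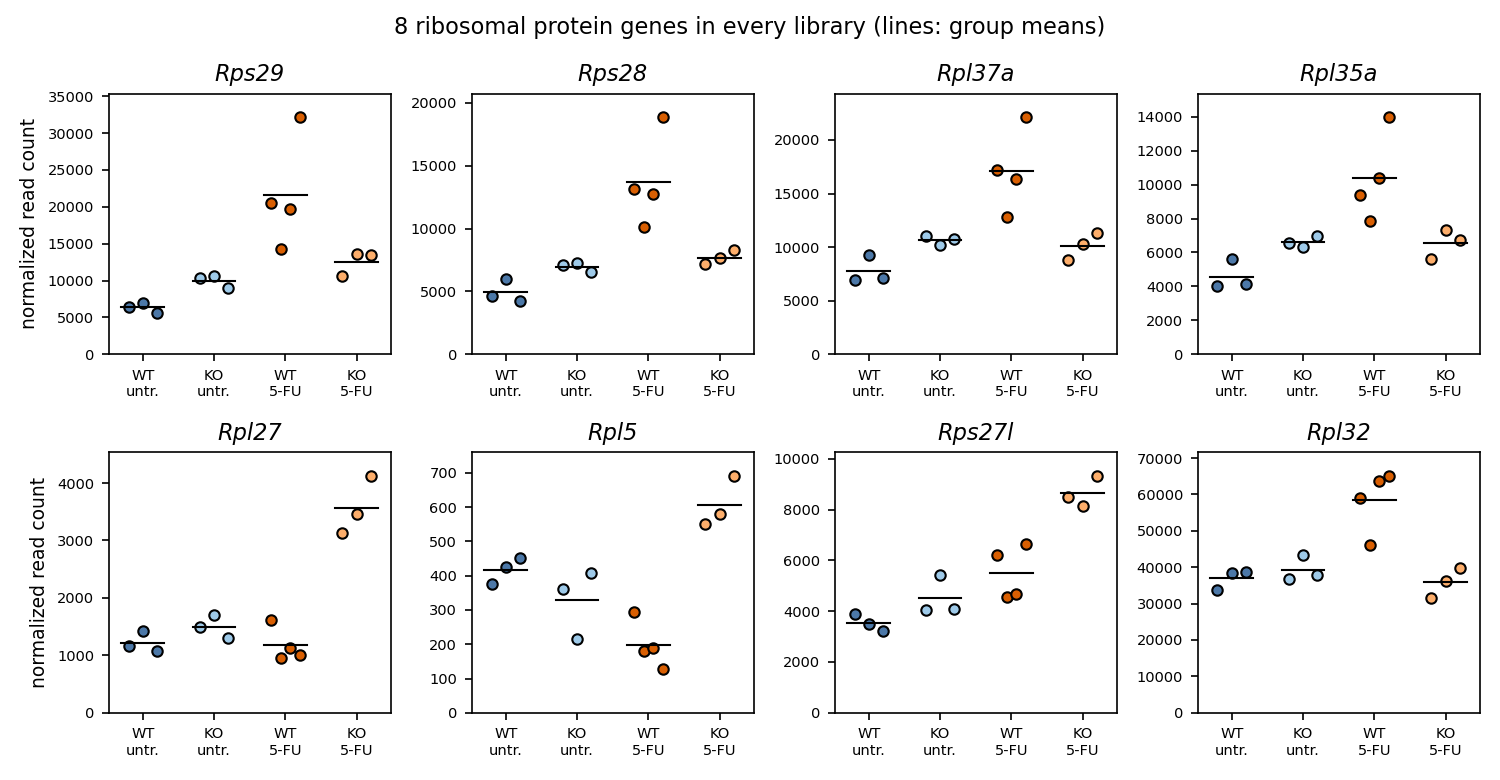
Normalized read count (vertical axes, from 0) of 8 ribosomal protein genes in each library (points) by group (horizontal axes), with group means as lines. Rps29, Rps28, Rpl37a and Rpl35a are highest in WT after 5-FU, while Rpl27, Rpl5 and Rps27l are highest in the 3 KO libraries after 5-FU.

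The count of members lower in KO after 5-FU was 9 without WT D4, 6 without KO A5, 7 without KO A6 and 9 with acquisition date as a term. Without WT D4 all libraries compared carry the 2016 date, and the median difference of the members was -0.19. Of the 22 calls, 9 held under all 18 alternatives of this comparison, among them Rpl34, Rpl32, Rps19, Rps24 and Rps28 lower, and Rpl5 and Rpl27 higher. None of these alternatives varied how reads shared between genes were counted. The HSC, megakaryocyte, erythroid, neutrophil, B and T and NK cell marker sums given above were lower in the same KO libraries, and the macrophage sum was higher. Called lower were 8 of 9 tested megakaryocyte, 5 of 14 HSC, 4 of 8 neutrophil and 3 of 8 erythroid markers. So were 1 of 4 B cell, 1 of 2 T and NK cell and 1 of 2 stroma and endothelium markers. Called higher were 1 of 14 HSC and 1 of 5 macrophage markers. Over all tested genes 5.5% were lower and 5.36% higher. The part of these markers in the differences of the members was not tested. The differences by length class were -0.45, -0.19 and -0.12 from the shortest to the longest members, and -0.03, 0.02 and -0.001 in other genes of these lengths. Without WT D4 those of the members were -0.30, -0.15 and -0.14, and Spearman's rho with coding length went from 0.42 to 0.21, so much of this gradient rested on that library.

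In untreated cells no member was called between KO and WT (limma, 0 higher and 0 lower), where the background was 0.0234% higher and 0.00778% lower. At an unadjusted p under 0.05 there were 9 members, and limma-voom on recovered reads also called 0. The median difference was 0.16, with 70 of 78 positive. Without untreated WT D1 alone it was 0.09, with 53 of 78 positive. The 3 members with the smallest p were Rps29, Rpl39 and Rpl35a, which did not pass. Rps29 had 10381, 10613 and 8992 in KO against 5610 to 7003 in WT, without overlap (0.63 ± 0.21 SE, adjusted p = 0.318). Rpl39 differed by 0.53 ± 0.18 (adjusted p = 0.321), and Rpl35a by 0.51 ± 0.18 (adjusted p = 0.347). These are short genes too, and the median of the shortest class was 0.33 against 0.08 in the longest, where 21 of 26 were positive. Without D1 the shortest class stayed at 0.33, and the longest changed sign, to -0.04 with 8 of 26 positive.

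The difference between the genotypes in their response to 5-FU was tested as an interaction. It was lower in KO for 10 members and higher for 1, against a background of 1.8% lower and 1.04% higher, with a median of -0.41 over the members and -0.009 over all genes. Among the largest were Rps29 (-1.34 ± 0.29 SE, adjusted p = 0.0187), Rps28 (-1.25), Rpl37a (-1.16), Rpl35a (-1.12), Rpl36 (-1.01), Rps26 (-1.003), Rpl34 (-0.96) and Rps24 (-0.86). Rpl36, a large-subunit gene, had a mean of 9507 in untreated WT and 20137 in WT after 5-FU, against 12381 and 12440 in KO. Rpl27 was the member with the opposite sign (1.13 ± 0.25 SE, adjusted p = 0.0256). The count of lower interactions was 5 without the libraries on the second flowcell (median -0.25), 6 without untreated WT D3, 5, 6 and 4 without untreated KO D4, D5 and D6, 3 without KO A5, 5 without KO A6, and 16 without WT A3. Rpl37a and Rps28 were among those that held under all 23 alternatives. Rps29 held under 22 of them and was lost without KO A5, and Rpl35a held under 19, Rpl34 under 17, Rps24 under 16, Rps26 and Rpl27 under 14, and Rpl36 and Rpl32 under 13.

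**Figure D5:**
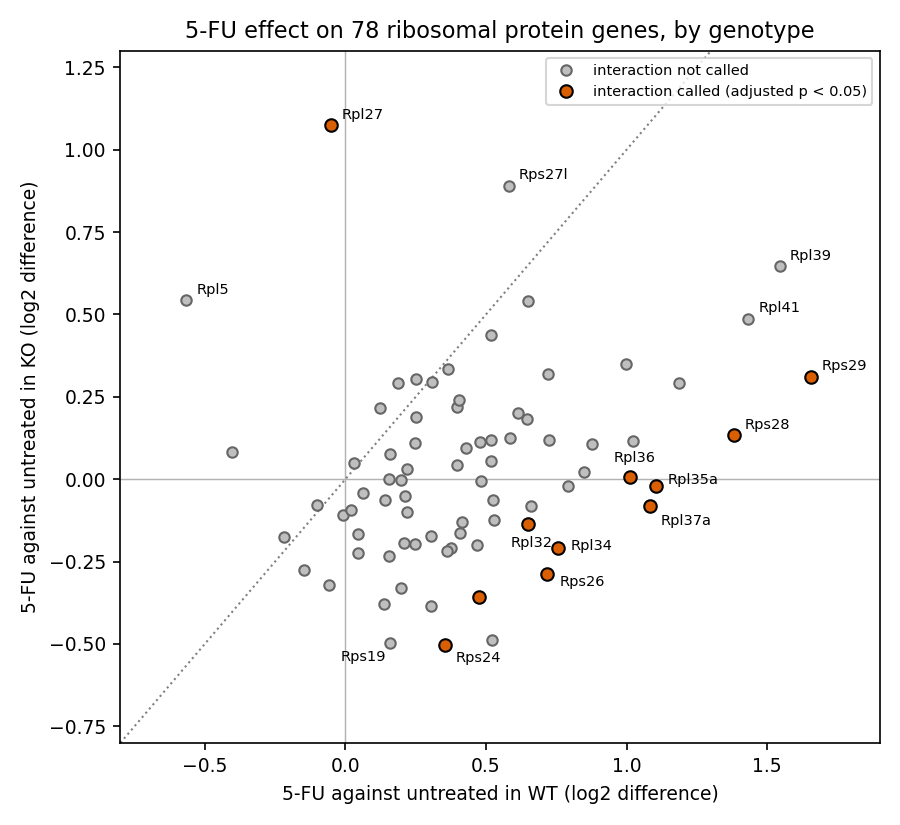
Log2 difference of 5-FU over untreated in WT (horizontal axis) and in KO (vertical axis) for each of the 78 genes, with equal responses on the dotted line. The 11 genes called for the interaction are in orange: 10 lie below the line and Rpl27 above it.

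Paralogues were compared where both were measured. Rpl36a, an X-linked large-subunit gene, rose with 5-FU in WT (0.66, adjusted p = 0.0164), and its paralogue Rpl36al did not pass there (0.33) but rose in KO (0.54, adjusted p = 0.0426) and was higher in KO than in WT after 5-FU (0.50, adjusted p = 0.0305). The Rpl36a call held under 14 of 18 alternatives. It was lost without untreated WT D3, without WT D4 after 5-FU and without both libraries on the second flowcell. A fit of only the 2 WT groups lost the Rpl36a call too. Rpl22 rose with 5-FU in WT (0.58, adjusted p = 0.034), and Rpl22l1 did not pass (0.41, adjusted p = 0.101). The Rpl22 call held under 10 of 18 alternatives and was lost without any one of untreated WT D1 or D3 and WT A2, A4 or D4 after 5-FU, with only the 2 WT groups in the fit, and when acquisition date was a term. The difference between these paralogues was not tested. Rpl7 and Rpl7l1 passed in no comparison, with WT differences of -0.10 and -0.39. Rpl3 (-0.15) and Rpl10 (0.03) did not pass in the WT response. Rpl39l was read in 6 of 13 libraries, with at most 63.1 normalized counts, in KO A5. Rps27rt, the near copy of Rps27, was called higher with 5-FU in WT (1.07, adjusted p = 0.00219). It was called lower in KO than in WT after 5-FU (-1.29, adjusted p = 0.000323), with 9559, 11381 and 11629 in KO against 19729 to 42213 in WT. Rps27 received 12.3% of the summed count of the pair in untreated WT D1 and 14.7% in WT D4 after 5-FU. In the other libraries it received at most 0.490%. Because the pair shares most of its sequence, these calls are not read as expression of Rps27rt alone.

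Other genes of the same machinery gave more calls upwards than downwards in KO against WT after 5-FU, where 5.36% of all tested genes were higher and 5.5% lower, with a median of -0.02. Of 72 tested ribosome biogenesis genes, 16 were higher and 0 lower in KO than in WT, with a median of 0.43. The smallest p-values were in Mrto4, a 60S assembly factor (1.74), Ncl, nucleolin (1.00), and Pno1, a 40S assembly factor (1.26). Of 77 mitochondrial ribosomal protein genes, 21 were higher and 0 lower, with a median of 0.37. Their share of reads was 0.948% ± 0.0296 (SD, n = 3) in KO and 0.683% ± 0.0499 (SD, n = 4) in WT after 5-FU. Of 31 tested genes of other TOP mRNAs, 11 were higher and 1 lower, with a median of 0.34. The smallest p-values among these were in Slc25a5, an ADP/ATP carrier (1.08), Npm1, nucleophosmin (0.91), and Eef1d, an elongation factor subunit (0.88).

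Among 18 ribosomal protein chaperone and import genes, 3 were higher in KO after 5-FU (Kpnb1, Rpf2 and Ipo4), or 16.7%. Among 19 genes of RNA polymerase I, 2 were higher (Polr1d and Polr2f). Beside the 5.36% over all tested genes, 2 calls in a list of this size are near the background. Polr2h differed by 0.49 and did not pass. Of 24 genes of mTOR and translation control, Pdcd4, an inhibitor of the initiation factor eIF4A, was lower (-2.12) and Eif4e, the cap-binding factor, higher (0.66), and Maf1 differed by -0.84 without passing. That is 4.17% in each direction, below the 5.36% and 5.5% over all tested genes. Of 16 genes of the MYC and p53 networks, Mdm4, an inhibitor of p53, was lower (-0.66), while Mycn and Mxd4 differed by 0.66 and -0.65 and did not pass. The 1 call is 6.25% of the list, near the 5.5% over all tested genes. In the WT response to 5-FU, 0 of 31 other TOP mRNAs and 0 of 72 ribosome biogenesis genes rose at the adjusted threshold, with medians of -0.08 and -0.02, and 4 biogenesis genes (5.56%) fell, where 3.72% of all tested genes rose and 2.96% fell.

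Members with and without a pyrimidine run at an annotated start had similar lengths, with median coding lengths of 444 and 435 bases. Of the 23 genes with a run, 10 rose with 5-FU in WT, with a median of 0.41, and of the 35 without one, 12 rose, with a median of 0.40, where 3.72% of all tested genes rose. In KO against WT after 5-FU, 7 of 23 were lower and 1 higher, with a median of -0.40, against 5 lower and 2 higher of 35, with a median of -0.24, where 5.5% of all tested genes were lower and 5.36% higher. These are descriptions of the genes with a promoter in the RefSeq table, and no difference between the 2 sets was tested. The sets depend on the annotated starts and do not stand for mRNAs with and without a TOP motif.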

How the data were processed

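The authors deposited one table of log2-scale variance-stabilized values for 13 libraries. Per the submitters' processing notes, Trimmomatic, Bowtie 1.1.1, DESeq2 and the mm10 genome were used; the counting tool, annotation and strand setting are not given in the sources used, so overlapping and near-identical genes are uncertain. The transformation was inverted from the table itself: reads came out whole within 0.1 for all values, with an added constant of 1 (2 in untreated WT D1). Normalized counts are these reads over the size factor.

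Members, gene lists and the rule for named genes were chosen with earlier results of these data known. Named were, per comparison, up to 8 members a direction with the largest difference among those that passed (the 3 with the smallest p where fewer than 3 passed), paralogue pairs, stalk, MDM2-binding and Diamond-Blackfan genes, Rps6, Rpsa, Rpl38, the 3 highest and lowest per kilobase, the 5 largest differences between WT D4 and A3, and the 3 smallest p-values of each other list. The 5 comparisons were fitted in limma 3.58.1 (R 4.3.3) on the deposited log2 values: one mean per group over 13 libraries, eBayes with a trend (residual df 9, prior df 7.67), 12846 genes that reached 10 normalized counts in 3 or more libraries, Benjamini-Hochberg at 0.05. Differences on this scale understate changes of low genes. Coordinates and coding lengths are from GENCODE M21 (GRCm38), with unique stretches of 50 bases counted in its transcripts. Medians and counts over lists stand without a test. Some genes that the rule names are not reported here, and counts over the members include them.

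The fit was tested on simulated counts with 200 changed genes, drawn at random from all 12846 tested genes. For KO against WT after 5-FU, 9% of 2-fold and 52% of 4-fold changes were found, and 3 of the 64 calls were false. Alternatives were other filters, scalings, pseudocounts of 1 and 10, limma-voom, fewer groups, acquisition date, the close pair averaged, and each library left out. One more, without both libraries on the second flowcell, was chosen after seeing the data. Python 3.11.15 was used for the rest.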

Additional observations from a re-analysis of the deposited data

Results flagged for a closer look

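Rps27 in WT D4 after 5-FU (7303 normalized counts) lay far above the other 3 libraries of its group, which held 9.51 to 16.2. In the same group Rpl22 was low in A3 (3987 against 5844 to 6094) and Rpsa was low in A4 (16752 against 19829 to 20000). Among 78 members, 3 stood apart in this way by Dixon's criterion for 4 samples, and chance gives about 1 in 20.

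The genotype effect differed between 5-FU and untreated cells, by the interaction test, in 11 members. The log2 interactions of those named were -1.34 for Rps29, -1.25 for Rps28, -1.16 for Rpl37a, -1.12 for Rpl35a, -1.01 for Rpl36, -1.003 for Rps26, -0.96 for Rpl34, -0.86 for Rps24, -0.78 for Rpl32 and 1.13 for Rpl27.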

How the results depend on the processing

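No member named for a called difference changed sign under any alternative run. Leaving out 1 library gave 6 to 22 members lower in KO than in WT after 5-FU, 19 to 36 higher and 0 to 1 lower with 5-FU in WT, 0 lower with 5-FU in KO, and interactions of 0 to 2 higher and 3 to 16 lower. Without both libraries on the second flowcell, 5-FU in WT gave 14 higher, 0 lower and a median of 0.25, 3 members fell with 5-FU in KO, and the interaction 0 higher, 5 lower and a median of -0.25. With acquisition date as a term, 9 members were lower in KO after 5-FU, 0 fell with 5-FU in WT and 0 interactions were higher. In that fit 0 rose and 0 fell with 5-FU in KO, where the median was 0.23 against -0.002 in the main fit. The WT median went from 0.40 to 0.51. With only the groups compared in the fit, 15 rose and 0 fell with 5-FU in WT and 3 fell in KO. Averaging WT A3 and D4 gave 0 falls with 5-FU in WT, 3 in KO and 0 interactions higher. Quantile normalization gave a WT median of 0.20, 6 falls with 5-FU in KO and 2 interactions higher. Falls with 5-FU in KO numbered 3 when scaled to library totals and 2 with a minimum count of 50, which gave 2 interactions higher, as did limma-voom. The causes were not tested. No paired analysis was possible because the groups compared share at most 1 replicate label. With 100 cells a library and 3 or 4 libraries a group, most 2-fold changes of the simulation were missed. Its changed genes were drawn from all tested genes, whatever their level, so this rate is not that of the members.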
